A study of Mus musculus with 12 samples.

Results

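The comparison sets the mammary stem cell-enriched (MaSC-enriched) fraction of mouse mammary epithelium against the luminal fraction, in mice whose ovaries had been removed (ovx). It was made up from the sample titles and holds 4 of the 8 RNA samples of the series, 2 for each fraction, measured on 6 of its 12 arrays. The ovx animals were female FVB/NJ mice that underwent surgery at an age of 8 weeks and gave their glands 4 weeks later, and each ovx pool combined 6 mice. Cells without the blood and endothelial surface proteins CD45, CD31 and TER119 were sorted into a CD29-high CD24-positive fraction (MaSC-enriched) and a CD29-low CD24-positive fraction (luminal), with a stated purity above 90%. Both fractions came from the same 2 pools, so that the samples are paired by animals: pool 2 gave replicate 1 and pool 3 gave replicate 2 of each fraction. The other 4 samples are the same fractions from control mice, for which the labels give neither an age nor a pool size. Nothing in the labels marks the control animals as sham operated.

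The mammary duct is a bilayer. Its outer, basal layer holds contractile myoepithelial cells that rest on a basement membrane and squeeze milk out in response to oxytocin, together with the cells that can regrow a gland after transplantation, which are few within the CD29-high gate. Its inner, luminal layer holds hormone-sensing cells that carry the oestrogen and progesterone receptors and progenitors of the milk-secreting cells, joined at their apical side by tight junctions. Ovariectomy removes the main source of oestrogen and progesterone, to which basal cells respond largely through signals sent by the luminal cells. The MaSC-enriched fraction is therefore a mixture in which most cells are expected to be basal and myoepithelial, and the fraction label names an enrichment and not a pure stem cell sample.

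Up to 250 ng of total RNA per sample was amplified and hybridised to Illumina BeadChips, which carry 45281 probes. Between 17705 and 18903 probes were detected on each of the 6 ovx arrays. Levels are given below on the log2 scale after background correction and quantile normalization, where the lowest level of a detected probe was 5.73 to 5.93 on an ovx array and the highest level of any probe was 15.19. After averaging the arrays of the same RNA, 20995 probes for 11292 genes passed the filter on detection, and a gene is represented by its brightest such probe. The correlation between single ovx arrays was 0.994 where an RNA was run again, 0.950 to 0.986 between pools of a fraction and 0.830 to 0.860 between fractions. Differences are MaSC-enriched minus luminal with their standard error (SE), tested with limma and adjusted by Benjamini-Hochberg over all 20995 probes. With 2 samples against 2 an exact test could not go below p = 0.333, so each call rests on the spread that limma shares across probes and across the 4 groups. The pools are the replicates, and their number, 2 for each fraction, limits the precision. Beside some genes the same contrast in control mice is given, and no difference between the contrasts passed the test.

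The 4 ovx samples did not separate equally well. Of the 638 genes that were higher in luminal cells, 511 (80.1%) read higher in ovx MaSC-enriched replicate 1 than in replicate 2, by a median log2 of 0.42, against 52.0% of all 11292 genes with a median of 0.03. In the luminal samples, replicate 2 read above replicate 1 for 69.0% of the 1006 genes that were higher in MaSC-enriched cells, by a median of 0.18, against 48.8% of all genes. These values describe the samples and were not tested. The basal markers Krt5, Krt14 and Trp63 and the luminal markers Krt7, Krt19 and Foxa1 went with the fraction label in all 4 samples, but luminal genes lay closer to the other fraction in MaSC-enriched replicate 1, and basal genes did so in luminal replicate 2. MaSC-enriched replicate 1 was run on beadchip 1 only and luminal replicate 2 on beadchip 2 only. The other ovx samples are means over both beadchips. The 2 MaSC-enriched samples share beadchip 1 and the 2 luminal samples share beadchip 2, but the replicates were not compared within a chip. The parts of pool, beadchip and number of arrays were therefore not tested. Of the 168 calls among the genes chosen for naming, 70 were kept without any 1 of the 4 ovx samples, so a call or count given without such a statement is not thereby stable. In bulk RNA a smaller share of cells of a type and less RNA per cell cannot be told apart.

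**Figure D1:**
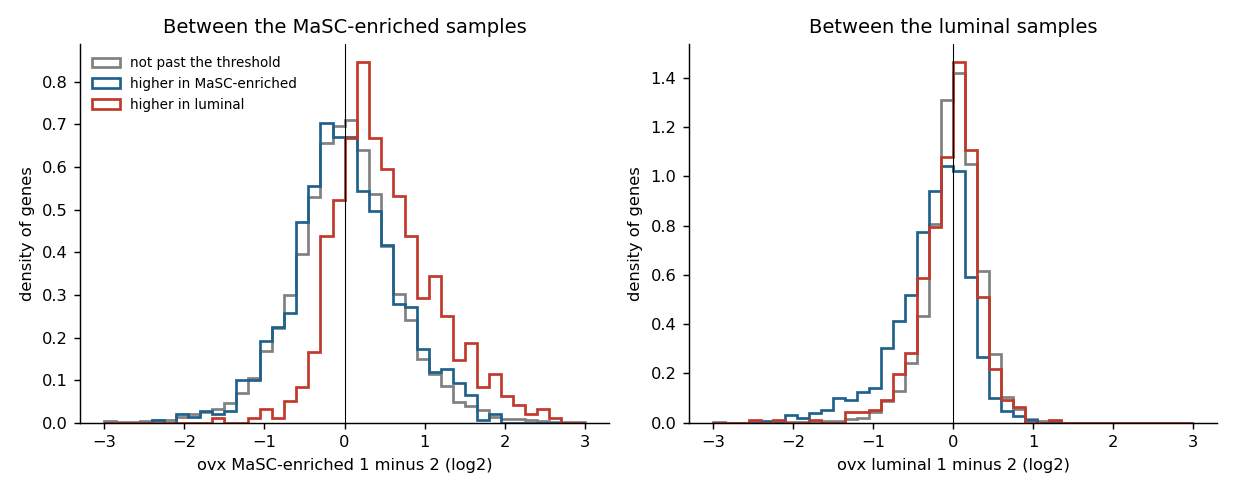
Distribution over genes of the log2 difference between the ovx MaSC-enriched samples (left) and between the ovx luminal samples (right), drawn as densities, with values beyond 3 set to 3. Genes higher in luminal cells (red) lie mostly to the right of 0 on the left, with 80.1% above it, and genes higher in MaSC-enriched cells (blue) lean to the left of 0 on the right.

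Past the threshold lay 2596 probes (12.4% of those tested, 5541 at an unadjusted p under 0.05), of which 1536 read higher and 1060 lower in MaSC-enriched cells. By gene, 1006 (8.91%) were higher and 638 (5.65%) were lower, with median log2 differences of 2.58 and −2.25 against −0.08 over all genes. The list counts given below are to be set against these shares of 8.91% and 5.65%. Differences of 8-fold or more were reached by 372 of the higher and 159 of the lower genes. In each of these 1644 genes the samples of the fractions did not overlap, as was also the case for 67.0% of all genes tested. All 1644 had the same direction on each of the 2 beadchips, compared within the chip. The same arrays gave the calls, so this is not a separate replication. With 1 sample of a fraction missing from each chip, 262 probes passed within the first chip and 2687 within the second. Of the 11292 genes, 425 were detected on all 3 MaSC-enriched arrays and on no luminal array, and 274 showed the reverse. The 3 arrays of a fraction hold 2 RNA samples.

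The 15 genes with the largest positive difference included the basal factor Trp63, basal keratin 5 and 4 genes of the contractile list. Trp63 encodes p63, the transcription factor of basal epithelia, and its level was 5.07 and 6.43 in luminal replicates 1 and 2 and 13.52 and 13.56 in the MaSC-enriched replicates. Its difference was 7.79 (SE 0.45, limma adjusted p = 0.000303). Actg2, the enteric smooth muscle actin, read 5.18 and 5.91 against 13.39 and 13.42, a difference of 7.86 (SE 0.41, adjusted p = 0.000268). Both genes were near the detection floor in the luminal samples, where 1 of 3 arrays detected them, and near the top of the scale in the other fraction. Next came Dkk3 (7.44), a secreted glycoprotein of the Dickkopf family, keratin 5 (Krt5, 7.43), Col17a1 (7.41), the transmembrane collagen of hemidesmosomes, and the chemokine Cxcl14 (7.33). Cdh3, or P-cadherin, was not detected on any luminal array and was at least 93.6-fold higher, on the rule that an undetected sample is set to its detection floor. By the same rule Tenm2, a teneurin adhesion receptor, was at least 91.3-fold higher, Sobp at least 62.7-fold and the sodium channel gene Scn7a at least 53.6-fold higher. All 15 genes with the largest positive difference kept their call without any 1 of the 4 ovx samples.

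Among the genes with the largest negative difference were the pioneer factor Foxa1, which opens chromatin for the oestrogen receptor, and a set of membrane and enzyme genes. Foxa1 read 13.30 and 13.18 in the luminal samples and 9.65 and 7.76 in the MaSC-enriched samples, a difference of −4.53 (SE 0.70, adjusted p = 0.00789). The gap of nearly 2 log2 units between its MaSC-enriched replicates is the pattern described above. Cldn6, a claudin of tight junctions, was detected on all luminal arrays and on no MaSC-enriched array, and was at least 23.4-fold lower in the latter. Crym, a thyroid hormone binding protein, differed by −4.49 and the orphan nuclear receptor Esrrg by −4.46. Arginase 1 (Arg1, −4.51), the tryptophan-degrading enzyme Ido1 (−4.45), the hormone stanniocalcin 2 (Stc2, −4.43) and the Ras exchange factor Rasgrf1 (−4.93) followed. The largest difference was that of parvalbumin (Pvalb, −5.19), which is a muscle protein and is taken up with the other muscle genes. Of the 15 genes with the largest negative difference, only Pvalb, Cldn6, Crym and Esrrg kept their call without any 1 of the 4 ovx samples.

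The keratins separated the fractions, on the basal side by much more than on the luminal side. Keratin 5 read 5.04 and 6.07 in luminal cells and 12.77 and 13.19 in MaSC-enriched cells. Keratin 14 read 9.43 and 10.85 against 14.76 and 14.36 (4.42, SE 0.57, adjusted p = 0.00402), and keratin 17 read 8.53 and 9.74 against 14.87 and 14.44 (5.52, SE 0.55, adjusted p = 0.00159). Luminal replicate 2 was the higher of the luminal samples for all 3 genes. Of the 6 basal keratins tested, 4 were higher and 1 was lower, with a median of 4.04. The exception was Krt6a, a keratin of luminal progenitors and of stressed epithelia, which read 7.68 and 8.40 in luminal cells, was not detected on any MaSC-enriched array and was at least 4.57-fold lower there. Krt15 is named after its values were seen: it read 8.31 and 9.62 against 8.60 and 9.18, a difference of −0.08 (SE 0.82) that did not pass, whereas in control mice it differed by 3.32.

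The 4 luminal keratins had a median of −2.13, and only Krt7 passed, at −3.21 (SE 0.83, adjusted p = 0.0485), a call that was lost without each of the 4 ovx samples in turn. Krt19 read 14.48 and 14.51 in luminal cells and 12.88 and 10.56 in MaSC-enriched cells (−2.77, adjusted p = 0.0706), and it passed without MaSC-enriched replicate 1 (adjusted p = 0.0334). Krt18 differed by −1.49 (adjusted p = 0.189). Krt8 read 14.86 and 15.05 against 14.69 and 14.57, a difference of −0.33 (SE 0.34, adjusted p = 0.628) close to the top of the measured range. All 4 luminal keratins were higher in MaSC-enriched replicate 1 than in replicate 2, by a median of 1.51. The 4 luminal keratins were detected on all MaSC-enriched arrays, whereas Krt5 and Trp63 were near the floor in luminal replicate 1.

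**Figure D2:**
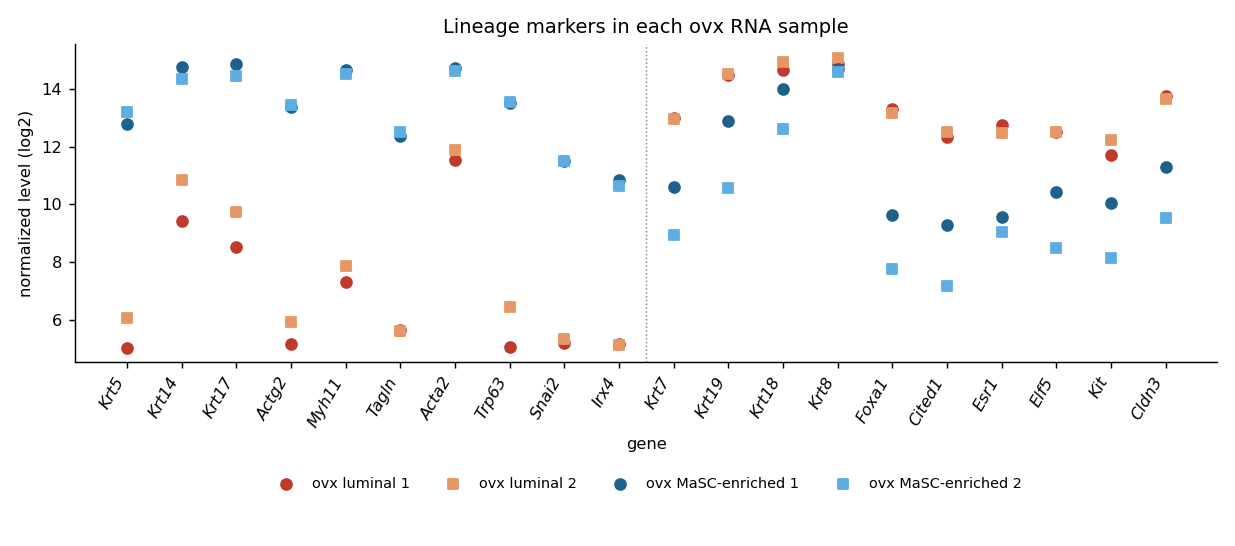
Normalized log2 level of 20 lineage genes in each of the 4 ovx RNA samples, with basal and myoepithelial genes left of the dotted line and luminal genes right of it. Krt5, Actg2 and Trp63 separate the fractions by over 6 log2 units in both pools, the luminal genes read higher in MaSC-enriched replicate 1 (dark blue) than in replicate 2 (light blue), and Krt8 is nearly level in all samples.

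Genes of the contractile apparatus were the most uniform group. Of 17 tested, 14 were higher in MaSC-enriched cells and none was lower, with a median of 3.91. Without single ovx samples the number higher was 11 to 14. Smooth muscle myosin heavy chain (Myh11) read 7.33 and 7.86 against 14.67 and 14.53, a 128-fold difference (SE 0.37 on the log2 scale, adjusted p = 0.000268). Its kinase and light chain partners followed, with myosin light chain kinase (Mylk) at 5.55 and the regulatory light chain Myl9 at 6.64. Transgelin (Tagln) read 5.65 and 5.62 against 12.36 and 12.51 (6.80). Smooth muscle alpha-actin (Acta2), the usual stain for myoepithelium, read 11.54 and 11.88 against 14.71 and 14.63, a difference of 2.96 (SE 0.28), while its other probes gave 3.88 to 6.72. Tropomyosin 2 (Tpm2) differed by 5.14 by its brightest probe, but its other probes gave −3.44 to 0.03, so its direction depends on the probe. Calponin 1 (Cnn1), named after its values were seen, was not detected on luminal arrays and was at least 4.98-fold higher.

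Serum response factor switches on many contractile genes by binding the CArG box, a 10-base element. The promoter table of RefSeq (build GRCm38.p6, 250 bases before to 50 after each gene's start) had entries for 14 of the contractile genes tested, and it was searched for the CArG box on both strands. The box was found for 2 of these 14 (14.3%), Myl9 and Cnn2, against 151 of 9072 tested genes with an entry (1.66%). Actg2, Tagln and Myh11 had no entry, so their promoters were not searched. The box was also found for 2 of 10 basal transcription factors (20%) and 1 of 16 luminal ones (6.25%). Of 15 tight junction and apical genes 0 had it. The Myl9 and Cnn2 windows are shown with the match in capitals. They are the contractile promoters of the table in which the element can be seen. The Myl9 window is chr2:156775214-156775513 on the plus strand, with the match starting 161 bases before the gene's start. The Cnn2 window is chr10:79988350-79988649 on the plus strand, with the match starting 56 bases before the start.
Myl9: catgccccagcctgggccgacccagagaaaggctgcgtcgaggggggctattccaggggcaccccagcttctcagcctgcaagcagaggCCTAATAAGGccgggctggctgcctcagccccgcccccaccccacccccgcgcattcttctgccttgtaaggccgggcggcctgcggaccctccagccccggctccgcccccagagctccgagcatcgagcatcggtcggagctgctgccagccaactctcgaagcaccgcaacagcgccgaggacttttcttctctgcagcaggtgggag
Cnn2: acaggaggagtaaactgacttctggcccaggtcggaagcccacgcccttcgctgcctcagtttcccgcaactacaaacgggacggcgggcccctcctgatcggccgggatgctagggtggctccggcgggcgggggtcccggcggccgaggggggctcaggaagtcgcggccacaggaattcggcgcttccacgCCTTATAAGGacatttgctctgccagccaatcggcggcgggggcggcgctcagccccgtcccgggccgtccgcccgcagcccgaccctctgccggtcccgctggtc
Myl9 read 7.43 and 8.35 in luminal cells and 14.44 and 14.62 in MaSC-enriched cells. Cnn2, calponin 2, read 7.72 and 8.29 against 10.33 and 10.47 and is named because its promoter is shown. A match is a description of the letters and not of a bound site.

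Transcription factors of the basal lineage were higher in 10 of 15 cases and lower in none, with a median of 2.73. Without luminal replicate 1 the number was 5 and without luminal replicate 2 it was 6. Snai2 (Slug), a repressor of luminal genes, read 5.20 and 5.35 in luminal cells and 11.51 and 11.50 in MaSC-enriched cells and was at least 52.5-fold higher. Irx4 was at least 30.8-fold higher. Id4, an inhibitor of basic helix-loop-helix factors, differed by 5.44 and Bcl11b by 3.74. These 4 genes and Trp63 kept their call without any 1 of the ovx samples.

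Luminal transcription factors were lower in 6 of 20 cases and higher in none, with a median of −0.88. Besides Foxa1 these included Cited1, a cofactor of the oestrogen receptor (−4.18, adjusted p = 0.0082), Grhl1 (−3.85), Tfcp2l1 (−4.07) and Elf5, the factor of the alveolar progenitor. Elf5 read 12.50 and 12.51 in luminal cells and 10.43 and 8.48 in MaSC-enriched cells (−3.05, SE 0.73, adjusted p = 0.0375). Spdef was not detected on MaSC-enriched arrays and was at least 3.03-fold lower there. Gata3, needed for luminal identity, read 13.02 and 12.79 against 11.98 and 12.24 (−0.80, adjusted p = 0.294). Without luminal replicate 1 none of the 6 kept its call, without luminal replicate 2 the number was 1, without MaSC-enriched replicate 1 it was 6, and without MaSC-enriched replicate 2 it was 3.

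The hormone-sensing genes were lower in MaSC-enriched cells in 5 of 10 cases, with a median of −1.64. The oestrogen receptor Esr1 read 12.76 and 12.46 in luminal cells and 9.57 and 9.05 in MaSC-enriched cells, a difference of −3.31 (SE 0.51, adjusted p = 0.00764), and its other probe gave −1.14. Wnt4, a progesterone-induced ligand that luminal cells send to basal cells, read 11.04 and 11.11 against 7.92 and 6.77 (−3.73, adjusted p = 0.00255). The prostaglandin receptor Ptger3 differed by −1.40. The progesterone receptor Pgr, itself an oestrogen target, read 6.32 and 7.06 against 5.24 and 5.75, close to the floor in both fractions, and its difference of −1.20 (SE 0.62) did not pass. RANK ligand (Tnfsf11), another progesterone target, read 5.91 and 5.81 against 5.58 and 5.79 (−0.18, adjusted p = 0.817), whereas the same contrast in control mice was −4.21. The RANK receptor Tnfrsf11a differed by 2.69 (adjusted p = 0.0627), and its decoy osteoprotegerin (Tnfrsf11b), not detected on luminal arrays, was at least 15.7-fold higher. The number of hormone-sensing genes past the threshold was 1 without either luminal sample and 3 or 4 without either MaSC-enriched sample.

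Luminal progenitor markers were lower in 5 of 10 cases, with a median of −1.92. The receptor tyrosine kinase Kit read 11.71 and 12.23 in luminal cells and 10.05 and 8.14 in MaSC-enriched cells (−2.87, adjusted p = 0.0299). The retinaldehyde dehydrogenase Aldh1a3 differed by −2.76, the placental and epithelial surface protein Plet1 by −3.46 and the lipopolysaccharide co-receptor Cd14 by −1.97. The Cd14 call was lost with the pool as a block (adjusted p = 0.0651). Milk protein and secretory genes were lower in 5 of 16 cases, with a median of −1.92 and none higher. Alpha-s1 casein (Csn1s1) read 12.74 and 13.97 against 10.58 and 10.41 (−2.86, SE 0.44), beta-casein (Csn2) differed by −2.90 and the mucin Muc1 by −2.20. Beta-casein was more abundant in luminal replicate 2, at 9.60, than in replicate 1, at 7.45. Without luminal replicate 2, or without MaSC-enriched replicate 2, no milk gene passed, and the progenitor count was 1 without any of luminal replicate 1, luminal replicate 2 or MaSC-enriched replicate 2.

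Secreted defence genes are usually counted with the luminal layer. Of 13 tested, 2 were higher and 0 were lower past the threshold, but 2 were lower under median scaling or with the ovx samples alone, and 3 within beadchip 2. The antiprotease Slpi read 6.34 and 7.40 in luminal cells and 12.30 and 12.97 in MaSC-enriched cells, a difference of 5.76 (SE 0.63, adjusted p = 0.00232). Lysozyme 2 (Lyz2), which macrophages also make, read 6.09 and 7.71 against 10.90 and 9.997 (3.55, adjusted p = 0.0218). The whey acidic protein family member Wfdc2 differed by −1.48 (adjusted p = 0.111). Slpi kept its call without any 1 of the ovx samples, and Lyz2 lost it without luminal replicate 1 or either MaSC-enriched sample.

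Most genes of the tight junction and apical list were lower in MaSC-enriched cells. Of 20 tight junction and apical genes, 12 were lower and none was higher, with a median of −2.16. Occludin (Ocln) read 8.98 and 9.49 in luminal cells and 6.50 and 5.53 in MaSC-enriched cells (−3.22, SE 0.42, adjusted p = 0.00423). Marveld3, of the same protein family, differed by −2.91, the scaffold Tjp3 by −3.48, the recycling GTPase Rab25 by −3.08 and the epithelial splicing factor Esrp2 by −3.29. The claudins Cldn3 and Cldn7, named after their values were seen, differed by −3.28 and −2.12. Of these 7 genes, Ocln and Marveld3 kept their call without any 1 of the ovx samples. The count of 12 was 2 without luminal replicate 1, 4 without luminal replicate 2, 10 without MaSC-enriched replicate 1 and 5 without MaSC-enriched replicate 2. The list read higher in MaSC-enriched replicate 1 than in replicate 2 for 16 of its 20 genes.

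Among 12 cadherin and desmosome genes, 2 were higher and 1 was lower (16.7% and 8.33%, against 8.91% and 5.65% of all genes). P-cadherin (Cdh3) read 4.99 and 5.15 in luminal cells and 12.27 and 12.40 in MaSC-enriched cells, while E-cadherin (Cdh1) read 12.60 and 12.83 against 12.03 and 11.49 (−0.95, adjusted p = 0.113). The desmosomal plakophilins went in opposite directions, with Pkp1 at 1.97 and Pkp2 at −3.61, both past the threshold. The connexins did likewise: Gja1 (3.44) and Gjc1 (at least 6.44-fold) were higher and Gjb2 (−2.44) was lower, out of 5 tested. Gja1 and Gjb2 encode connexins known from myoepithelial and luminal cells, respectively. Gjb2 lost its call without each of the 4 ovx samples in turn and Gja1 without luminal replicate 1, whereas Gjc1 kept it throughout. Cdh3 and Pkp2 also kept their call, and Pkp1 kept it only without MaSC-enriched replicate 1.

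A part of the genes for receptors and components of the basement membrane was higher in MaSC-enriched cells. Of 13 integrins 5 were higher, and 1 was lower under median scaling and within beadchip 2. Itga9 read 5.48 and 5.73 in luminal cells and 12.04 and 11.58 in MaSC-enriched cells and was at least 65-fold higher, and Itga1 was at least 6.35-fold higher. Itgb1, which is CD29 and was used for the sort, differed by 1.34 (adjusted p = 0.0362), and its partner Itga6 by 1.48. Both lost the call with the pool as a block (adjusted p = 0.0557 and 0.0561), as part of a fall of the integrin count from 5 to 3. Cd24a, the other sort marker, read 8.25 and 7.99 against 5.61 and 7.13 (−1.75, adjusted p = 0.184). As the gate sets the CD29 difference, the Itgb1 value checks the sort and is not a result, although Itgb1 is among the 5 integrins counted. Both fractions were gated as CD24-positive, so the stated gate gives no direction for Cd24a.

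Hemidesmosomes were represented by Col17a1, the anchoring fibril collagen Col7a1 (5.33) and Itga6, 3 of 7 tested. Laminin chains were higher in 4 of 9 cases: Lama1 read 5.88 and 5.95 against 12.49 and 11.84 (6.25, SE 0.48), and Lamb3, Lamb1 and Lamc1 differed by 3.89, 2.58 and 1.84. Lama5, named after its values were seen, differed by −0.96 and did not pass. Basement membrane collagens and their partners passed in 5 of 10 cases. Col18a1 differed by 5.32, the perlecan core protein Hspg2 by 3.87, and the paired collagen IV genes Col4a1 and Col4a2 by 3.59 and 4.27. Without luminal replicate 1, the integrin count was 2, the laminin count 1 and the basement membrane count 3. Without each of the other ovx samples in turn the integrin count was 3, and the laminin count was 2 without luminal replicate 2 or MaSC-enriched replicate 2.

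Interstitial collagens passed in 5 of 10 cases, led by Col14a1, which read 5.67 and 7.55 in luminal cells and 12.84 and 13.13 in MaSC-enriched cells (6.38, SE 0.68), and Col16a1 (2.88). Col5a1, Col6a1 and Col6a2 lost their call without luminal replicate 1 and without either MaSC-enriched sample. The whole list read higher in luminal replicate 2 than in replicate 1, by a median of 1.85. Fibroblast markers did the same, with a mean level of 7.33 and 8.84 in the luminal samples and of 9.14 and 9.93 in the MaSC-enriched samples, and their part in the collagen differences was not tested. Of 11 matrix proteases and inhibitors, 4 were higher, namely the gelatinase Mmp2 (4.77), the inhibitors Timp3 (3.91) and Timp4 (at least 5.87-fold) and the membrane-anchored inhibitor Reck (2.81). Timp1 was lower, at −1.56, a call lost without each of the 4 ovx samples in turn and under median scaling. Mmp2 kept its call without any 1 of the ovx samples, whereas the number higher was 1 without luminal replicate 1 and 2 without luminal replicate 2.

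**Figure D3:**
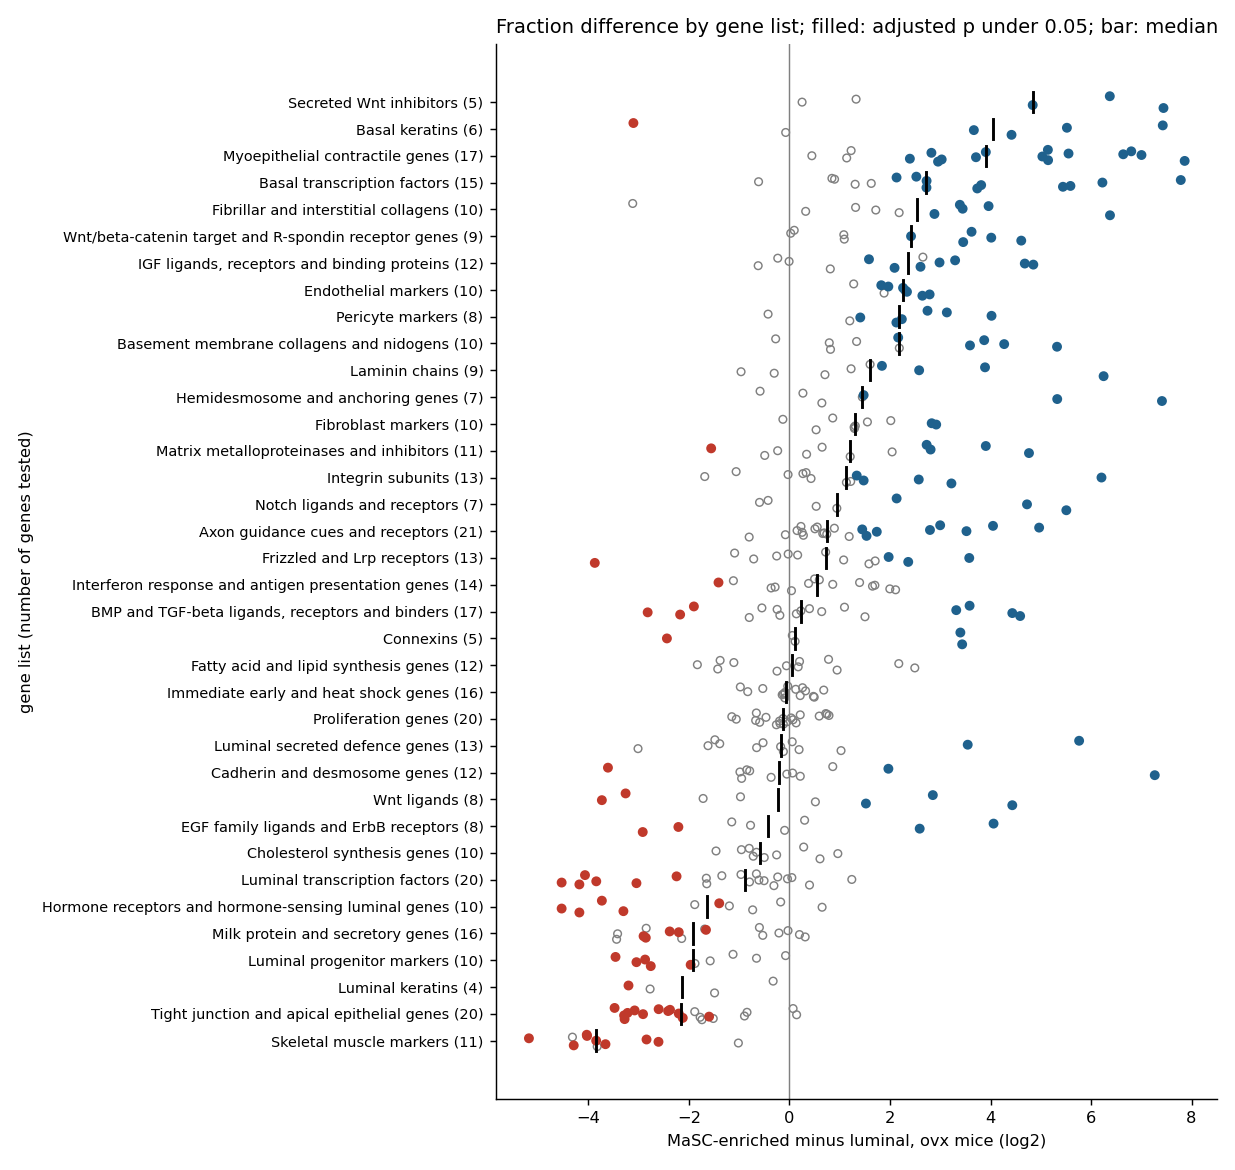
MaSC-enriched minus luminal difference (log2) of the tested genes of each list in ovx mice, 1 point a gene, ordered by the median (black bar), with filled points past the threshold (blue higher, red lower). Contractile genes, basal keratins and secreted Wnt inhibitors lie far to the right. Tight junction and apical genes and skeletal muscle markers lie to the left, and proliferation genes lie around 0.

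Wnt signalling genes were divided between the fractions. Wnt proteins bind Frizzled receptors and stabilise beta-catenin, and the pathway sustains basal mammary stem cells in transplantation assays. Of 8 ligands, Wnt10a, Wnt6 and Wnt11 were higher in MaSC-enriched cells and Wnt4 and Wnt7b were lower. Wnt10a read 5.26 and 5.24 in luminal cells and 9.03 and 10.34 in MaSC-enriched cells and was at least 14.9-fold higher, and Wnt6 was at least 5.18-fold higher. Wnt7b read 12.00 and 12.10 against 9.22 and 8.36 (−3.26, SE 0.51). Of these ligands Wnt10a and Wnt4 kept their call without any 1 of the ovx samples. Wnt6 and Wnt11 lost it without each of the 4 ovx samples in turn, and Wnt7b without all but MaSC-enriched replicate 1.

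Of 13 Frizzled and coreceptor genes, Fzd7 (3.58), Fzd2 (at least 4.02-fold) and Fzd8 (1.97) were higher, and Fzd10 (−3.87) was lower. These shares were 23.1% and 7.69%, against 8.91% and 5.65% of all genes. Fzd10os, a transcript annotated antisense to Fzd10, was lower as well (−4.31), but its call was lost without each of the 4 ovx samples in turn and with the pool as a block (adjusted p = 0.0506). Fzd10 and Fzd8 kept their call only without MaSC-enriched replicate 1, and Fzd2 lost it without either luminal sample. The deposited labels do not say which strand each probe reads, so that these 2 signals may not be independent. The list of beta-catenin targets and R-spondin receptors also held the transcription factor Tcf7l1. Of its 9 tested genes, 5 were higher and none was lower. Axin2, a feedback target of beta-catenin, read 5.12 and 5.58 against 9.04 and 8.57 and was at least 8.1-fold higher. Lgr5, an R-spondin receptor of stem cells in several tissues, read 6.46 and 5.95 against 10.26 and 11.37 (4.61, SE 0.47), and Nkd1 was at least 9.53-fold higher. Fzd7, Lgr5, Nkd1 and Tcf7l1 (3.62) kept their call without any 1 of the ovx samples, and Axin2 lost it without each of the 4 in turn.

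Secreted inhibitors of the pathway were higher in 3 of 5 cases, with the highest median of the lists, 4.84, and the count was 3 without any 1 of the ovx samples. Wif1, which binds Wnt proteins, read 6.08 and 6.37 in luminal cells and 12.38 and 12.81 in MaSC-enriched cells (6.37, SE 0.31, adjusted p = 0.000263). Sfrp1 differed by 4.84 and Dkk3, which unlike its relatives is not a clear Wnt antagonist, by 7.44. Sostdc1 differed by 1.33 and did not pass (adjusted p = 0.237), against 5.04 in control mice.

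Of 7 Notch ligands and receptors, 3 were higher in MaSC-enriched cells and none was lower. Dll1 read 6.65 and 6.73 in luminal cells and 11.66 and 12.74 in MaSC-enriched cells (5.51, SE 0.47), and Jag2 was at least 18.1-fold higher. Notch4, a receptor of endothelial cells, differed by 2.13 and lost its call with the pool as a block (adjusted p = 0.0705). Notch1 differed by −0.60 and did not pass. Of 8 targets and fringes only Mfng passed (12.5%, against 8.91% of all genes), at 2.49, and it kept the call only without MaSC-enriched replicate 2. Notch4 did likewise, whereas Dll1 and Jag2 kept their call throughout, and the target Hes1 differed by −1.43 (adjusted p = 0.151).

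Growth factor genes were split by fraction too. Of 8 genes of the EGF family, neuregulin 1 (Nrg1, 4.06) and the receptor Egfr (2.59) were higher in MaSC-enriched cells, and betacellulin (Btc, −2.92) and the receptor Erbb2 (−2.21) were lower. Of 17 genes of the BMP and TGF-beta pathways, 4 were higher and 3 were lower. Bmp7 read 5.03 and 5.18 against 9.61 and 9.78 and was at least 15-fold higher, the activin antagonist follistatin (Fst) differed by 4.43, the coreceptor Tgfbr3 by 3.58 and the latent TGF-beta binding protein Ltbp4 by 3.32. The BMP receptor Bmpr1b was lower (−2.18), and with the pool as a block 1 gene of this list was lower. The number lower was 1 without luminal replicate 1 or MaSC-enriched replicate 1 and 0 without either replicate 2. Among 5 FGF genes, Fgf7 alone passed the threshold (2.13), whereas its receptor Fgfr2 differed by −1.06 (adjusted p = 0.247). Nrg1, Bmp7, Fst and Tgfbr3 kept their call without any 1 of the ovx samples, whereas Btc lost it without each of the 4, Erbb2 without all but MaSC-enriched replicate 1, Egfr without all but luminal replicate 2 and Fgf7 without luminal replicate 1 or MaSC-enriched replicate 2.

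The IGF system passed in 7 of 12 cases, all higher in MaSC-enriched cells, with a median of 2.35. Binding proteins made up most of them. Igfbp3 read 6.59 and 7.82 against 11.67 and 12.11 (4.68, SE 0.50), Igfbp2 was at least 15.1-fold higher, and Igfbp4, Igfbp6 and Igfbp7 differed by 2.99, 3.30 and 1.58. The count was 1 without luminal replicate 1, 2 without MaSC-enriched replicate 1, 3 without MaSC-enriched replicate 2 and 4 without luminal replicate 2. Axon guidance genes, which also shape the mammary bilayer, were higher in 8 of 21 cases. Sema3c read 5.31 and 5.11 against 10.28 and 10.08 and was at least 21-fold higher, Ntn4 differed by 3.52, Slit3 by 4.05 and the netrin receptor Unc5b by 3.00. Their count fell to 1 without luminal replicate 1.

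No cell cycle or stress gene of the lists passed the test. None of 20 proliferation genes did, 0 had an unadjusted p under 0.05, and none passed without any 1 of the ovx samples, with a median of −0.13. The replication clamp Pcna read 7.97 and 7.62 in luminal cells and 7.74 and 9.42 in MaSC-enriched cells (0.79, adjusted p = 0.522), and Mcm2 differed by −1.06 (SE 1.19). Across the list the SE had a median of 1.19 log2 units and a highest value of 1.90, so that only large differences were detectable. The mean level of the list was 7.43 and 7.70 in the ovx luminal samples and 7.32 and 7.58 in the ovx MaSC-enriched samples. In control mice it was 8.31 and 11.01 in the luminal samples and 7.48 and 10.62 in the MaSC-enriched samples. That spread between control replicates enters the SE, which the 4 groups share. None of 16 immediate early and heat shock genes or 10 cholesterol synthesis genes passed, with medians of −0.06 and −0.58 and 0 at an unadjusted p under 0.05. None of 12 fatty acid and lipid synthesis genes passed, although 7 had an unadjusted p under 0.05, with the regulator Srebf1 nearest (−1.38, adjusted p = 0.0559). Of 14 interferon and antigen presentation genes 1 was lower (7.14%, near the 5.65% of all genes), the immunoproteasome subunit Psmb8, at −1.42. That call was lost without each of the 4 ovx samples in turn and under median scaling.

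Markers of cells outside the epithelium were unevenly spread over the 4 samples. Of 10 endothelial markers, 7 were higher in MaSC-enriched cells, although the gate removed CD31-positive cells. Pecam1, which is CD31, read 8.60 and 8.69 in luminal cells and 11.62 and 10.19 in MaSC-enriched cells (2.26, adjusted p = 0.044). Claudin 5 (Cldn5) read 9.12 and 9.98 against 13.03 and 11.65 (2.79), and VE-cadherin (Cdh5) differed by 2.64. All 10 endothelial markers were higher in MaSC-enriched replicate 1 than in replicate 2, and their mean level was 8.82 and 9.18 in the luminal samples and 11.89 and 10.43 in the MaSC-enriched samples. No endothelial marker passed without luminal replicate 1, luminal replicate 2 or MaSC-enriched replicate 1, 7 passed without MaSC-enriched replicate 2, and 3 passed with the pool as a block.

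Pericyte markers passed in 6 of 8 cases, and in 3 with the pool as a block. Their mean level was 6.97 and 7.42 in the luminal samples and 9.66 and 8.84 in the MaSC-enriched samples. Mcam, which smooth muscle and myoepithelial cells share, differed by 4.02 and Rgs5 by 2.75. The pericyte count was 0 without luminal replicate 1, 1 without luminal replicate 2, 1 without MaSC-enriched replicate 1 and 4 without MaSC-enriched replicate 2. The part of such cells in the differences of Notch4, the collagen IV genes and other genes that vessels share was not tested. Fibroblast markers were higher in 2 of 10 cases, Fbln1 (2.92) and Fbln2 (2.83), and in 4 with the pool as a block, while none passed without luminal replicate 1 or either MaSC-enriched sample. Of 3 immune markers tested none passed and 1 had an unadjusted p under 0.05, and Ptprc, which is CD45, did not pass the filter on detection.

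Skeletal muscle genes ran the other way. Of 11 tested, 8 were lower in MaSC-enriched cells, with a median of −3.85. Parvalbumin read 11.73 and 12.53 in luminal cells and 7.47 and 6.42 in MaSC-enriched cells. The light chain Mylpf read 10.30 and 11.21 against 7.34 and 6.48 (−3.85, SE 0.56). Muscle creatine kinase (Ckm) and the fast myosin Myh4 were detected on all luminal arrays and on no MaSC-enriched array. In control mice the median of the same 11 genes was 0.06. The mean level of the list was 10.03 and 10.70 in the ovx luminal samples and 7.24 and 6.28 in the ovx MaSC-enriched samples. The count was 3 without luminal replicate 2, 5 without MaSC-enriched replicate 2 and 6 without either other sample, and the source of these transcripts was not tested.

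Of 7 adipocyte markers with a probe, only 3 passed the filter on detection, and of these Lep and Adipoq passed the threshold. Leptin read 5.39 and 5.30 in luminal cells, below the floor, and 9.84 and 11.20 in MaSC-enriched cells and was at least 26.6-fold higher, whereas adiponectin was at least 3.42-fold higher. Both mark fat cells, and Car3, the other adipocyte marker tested, differed by 0.04 (adjusted p = 0.976). Lep kept its call without any 1 of the ovx samples, and Adipoq kept it without MaSC-enriched replicate 2 alone. Of the Schwann cell markers the myelin gene Pmp22, which many epithelia express, was higher (3.47). Mbp was lower by its brightest probe (−3.41), but its other probes gave 0.82 to 3.62, so its direction depends on the probe. The erythroid enzyme Alas2 was at least 5.25-fold lower.

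**Figure D4:**
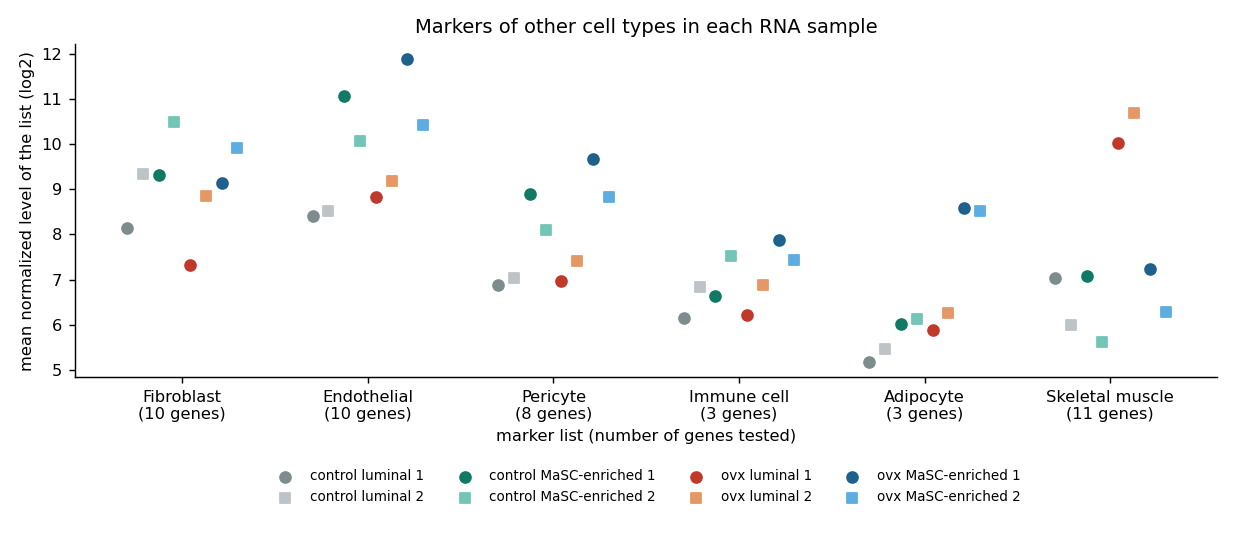
Mean normalized log2 level of the tested markers of 6 other cell types in each of the 8 RNA samples. Endothelial and pericyte markers are highest in ovx MaSC-enriched replicate 1 (dark blue circles), fibroblast markers are lowest in ovx luminal replicate 1 (red circles), and muscle markers are high in the ovx luminal samples only, at 10.03 and 10.70.

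The ovx contrast was set against the same contrast in the control mice to ask where the fractions differ otherwise after ovariectomy. None of the 20995 probes passed limma's test of this difference (0%), while 952 had an unadjusted p under 0.05, and the smallest adjusted p was 0.0557. Of the 1644 genes called in ovx mice, 988 (60.1%) were also called in control mice, and these make up 74.4% of the 1328 called there. The direction was the same in 97.8% of the 1644. The contrasts use different samples, but they share 1 estimate of the spread.

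The genes with the smallest p for the difference, named after their values were seen, stood far from the diagonal. The neuronal ubiquitin ligase gene Trim9 was undetected on the ovx luminal arrays, read 10.55 and 11.02 in the ovx MaSC-enriched samples and was at least 31.9-fold higher there. In the 4 control samples it read 4.98 to 5.46. The adhesion molecule Nrcam, undetected in ovx luminal cells, read 10.69 and 11.14 and was at least 34.9-fold higher, while it read 5.27 to 5.88 in the control samples. Dgkk, a diacylglycerol kinase, was the reverse case, at least 9.55-fold lower in ovx MaSC-enriched cells and at 4.79 to 5.33 in the control samples. Leptin read 5.33 to 5.77 in the control samples. In ovx mice these 4 genes were detected in 1 of the fractions and on no array of the other.

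Other genes had a wide gap between the fractions in control mice. The nuclear receptor Esrrb read 11.33 and 11.39 in control luminal cells and 5.63 and 6.34 in control MaSC-enriched cells, but 4.81 to 6.00 in the 4 ovx samples. Tnfsf11 read 10.41 and 11.09 against 6.42 and 6.65 in control mice, and 5.58 to 5.91 in the ovx samples. None of these changes of the contrast passed the test as fitted. Trim9 passed it under 7 of the other settings, with adjusted p values of 0.00156 to 0.0476, Nrcam under 5 of the same settings and Esrrb under 2 of them. Replicate 1 of the control MaSC-enriched samples had a detection floor of 7.29 and 12994 detected probes, so that dim genes were less measurable there.

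**Figure D5:**
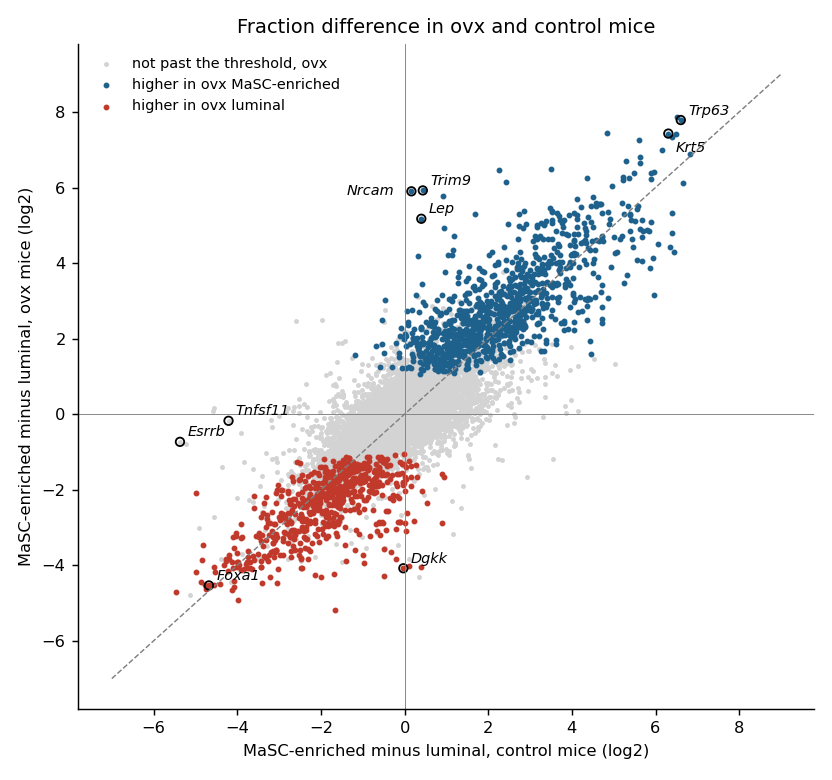
MaSC-enriched minus luminal difference (log2) of each tested gene in control mice (x axis) and in ovx mice (y axis), with genes called in ovx mice in blue (higher) and red (lower) and the diagonal dashed. Most called genes lie along the diagonal, with Krt5, Trp63 and Foxa1 at its ends, while Trim9, Nrcam and Lep lie near 0 on the x axis and Tnfsf11 and Esrrb near 0 on the y axis.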

How the data were processed

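Per the file headers, the deposited table holds for every probe and array the bead intensity beside its detection p-value; the intensities were not background-subtracted by the authors, since the lowest on each array was 80.3 to 100.1. The deposited series table holds the authors' normalized log2 values (array medians 6.22 to 6.23; scale read from the values) and served as an alternative; its background correction is not given in the sources used here. Per the submitters' processing notes, BeadStudio and limma were used. From the intensities, limma 3.58.1 in R 4.3.3 (neqc, detection p-values, offset 16, quantile over 12 arrays) gave log2 values, which were then averaged over repeat arrays of an RNA. Probes with a mean detection p under 0.05 in at least 2 of 8 samples were kept (46.4%). Gene names came from the platform annotation, in which 34885 probes have 1 symbol, 18 several and 10378 none.

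A limma fit of 4 group means, on 4 residual plus 3.22 prior degrees of freedom, gave moderated two-sided tests, adjusted by Benjamini-Hochberg at 0.05. The labels pair the fractions by mouse pool, and deviations within ovx pools correlated at 0.135; the pool as a block was an alternative. Alternatives covered background, scaling, filter, beadchip, block and leaving out each sample. An "at least" fold sets a group undetected on all its arrays to the detection floor. The 44 lists (561 genes, 437 tested) and the rule for named genes (the 15 largest differences a direction, 5 of each list by p, and fixed markers) were chosen with earlier results of these data known. The fit was checked on simulated data.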

Additional observations from a re-analysis of the deposited data

How the results depend on the processing

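The count of 2596 probes moved by over 1.5 times under some settings. It was 4307 with the 6 ovx arrays normalized and fitted alone, 4337 with the 4 ovx samples only, 262 within beadchip 1 and 785 when a log2 change of at least 1 was required. Leaving out 1 sample gave 508 (without ovx luminal replicate 1) to 3779 (without either control MaSC-enriched sample), with 729, 1301 and 1022 without ovx luminal replicate 2, MaSC-enriched replicate 1 and MaSC-enriched replicate 2. The cause was not tested. With the replicate block, the pool as a fixed term, it was 2748, and 14 of the 168 named calls were lost. Scaling by the median gave 1922, with a median of −0.31 over all genes against −0.08. Of the 168 named calls, 70 were kept without any 1 of the 4 ovx samples, and none changed direction under any setting.

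The count of 0 for the difference from control mice was 4 without background correction, 2 with an offset of 50, with the deposited table, with the stricter filter and with the pool as a random block, 1 with no filter and 9 over 12 arrays with the beadchip and RNA as blocks. It was 0 under median scaling, the replicate block, trend with robust and each left-out sample. Named genes that did not pass and changed direction had small differences. Car3 gave −0.0093 without background correction, −0.12 under median scaling and −0.66 to 0.75 over left-out samples. Krt15 gave 0.50 and 0.20 within beadchips 1 and 2 and −0.73 to 0.58 over left-out samples. Gjb1 gave −0.078 within beadchip 2 and −0.43 to 0.65 over left-out samples. Btg2 gave −0.66 within beadchip 1 and −0.22 to 1.20 over left-out samples, and Tnfsf11 gave 0.00092 within beadchip 1. Fgf1 gave 0.12 within beadchip 2. Over left-out samples Fgf1 ranged from −0.81 to 0.041, Gjb6 from −0.13 to 0.24, Sfrp2 from −0.14 to 0.64 and Pcna from −0.052 to 1.62. Dim probes are limited by the detection floor, since a level under it has no order.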
